A study of Mus musculus with 17 samples.

Results

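The genes described here are 9 genes of B cells and of the lymphoid follicles in which B cells gather: Cd79a, Cd79b, Blk, Ms4a1, Cr2, Fcer2a, Pax5, Cxcr5 and Cxcl13. They were taken by name from the array annotation, 9 of the 37325 gene names carried by the array, and each was read from the probe with the highest mean in the authors' table of log2 values. Blk has no probe in that table and was read from the single probe of the array. RNA was from the whole colon of male C57Bl6/J mice and was hybridized to 17 single-colour arrays. The question was how far the 9 genes rise and fall together from colon to colon, and whether they differ with the nuclear receptor PXR (encoded by Nr1i2) or with its rodent ligand pregnenolone 16α-carbonitrile (PCN).

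There were 4 groups. Corn oil alone was given to WT CONT (n = 4, replicates 2 to 5) and to Pxr-/- CONT (n = 5), and PCN to WT PCN and to Pxr-/- PCN (n = 4 in each). WT mice were purchased at 6 weeks of age and acclimatized for 2 weeks. Pxr-/- mice, backcrossed to C57Bl/6J, came from an in-house colony and their age is not given, so that genotype and colony cannot be told apart. Injections were intraperitoneal and given each day for 4 days, at 100 mg/kg for PCN. All mice were killed in the fed state at ZT6 (6 h after lights on), 6 h after the last injection. The labels do not tie arrays to mice beyond a replicate number. P-values therefore measure the spread between arrays.

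In the gut, B cells are concentrated in follicles, small aggregates in the mucosa and submucosa that include the colonic patches and isolated lymphoid follicles. Stromal cells of the follicle release the chemokine CXCL13, B cells carrying its receptor CXCR5 move towards it, and B cells return lymphotoxin signals that maintain the stroma. The B-cell antigen receptor signals through the CD79A and CD79B chains and Src-family kinases such as BLK. CD20 (Ms4a1), complement receptor 2 (Cr2) and the low-affinity IgE receptor CD23 (Fcer2a) are surface proteins of mature B cells, the latter pair being carried by follicular dendritic cells as well. PAX5 is the transcription factor that commits cells to the B lineage and is lost when they become plasma cells. In RNA of a whole organ, fewer cells of a type and less RNA per cell cannot be told apart.

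Array quality differed little, with 62.7 to 71.0% of spots well above background. WT PCN 4 and Pxr-/- PCN 2 were near-identical over all probes (SD of the log2 differences 0.172), as were WT PCN 3 and Pxr-/- CONT 2 (0.198), whereas the other 134 pairs of arrays lay between 0.297 and 0.616. By their chosen probes, the members differed by at most 0.27 on the log2 scale within the first near-identical pair and 0.39 within the second. In the other pairs this largest difference ran from 0.37 to 5.11. A second, dim probe of Pax5 read 6.91 on WT PCN 3 and 5.10 on Pxr-/- CONT 2, where it was not well above background. Because each pair carries contradictory labels, results are given with all 17 arrays and with the 13 arrays outside both pairs. The probe for Nr1i2 read 10.39 to 11.93 on the log2 scale on arrays labelled Pxr-/- and 11.10 to 12.44 on arrays labelled WT. The deleted part of the gene is not given in the sources used here, so the probe does not check the labels. Epcam, an epithelial adhesion protein that marks colonic epithelium, read 14.10 to 14.46. Cpa1, a pancreatic digestive enzyme, ranged from 4.85 to 17.88, and Alb, made in the liver, from 5.16 to 12.68. The mean of 8 acinar genes was 17.64 on WT CONT 4 and 15.32 and 15.29 on WT PCN 3 and Pxr-/- CONT 2. It was 10.79 on WT PCN 1 and between 6.43 and 6.80 on the other arrays.

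The probes of 3 members are shown for what their sequences match. Whether the sequence affects the signal was not tested. Cd79a and Blk are read across splice junctions, so these probes match spliced RNA. The Pax5 probe is unbroken in the genome and its 3 forward frames are open. Sequences are from the array annotation, 5′ to 3′, with mm9 positions.
Cd79a, chr7:25684357-25684614, plus strand: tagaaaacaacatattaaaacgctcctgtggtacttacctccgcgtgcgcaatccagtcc
Blk, chr14:63997333-63998470, minus strand: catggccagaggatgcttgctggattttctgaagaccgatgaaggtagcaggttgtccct
Pax5, chr4:44692322-44692381, minus strand: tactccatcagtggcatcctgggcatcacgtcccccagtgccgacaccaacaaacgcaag

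The RefSeq promoter table (GRCm38.p6) listed 7 promoters of 5 members (Cd79a, Cr2, Cxcl13, Fcer2a and Pax5). On both strands, 250 bases before to 50 after each start were searched for the octamer ATTTGCAT, TCCCNNGGG and AGGAAGT. TCCCNNGGG is part of the palindrome of early B-cell factor, and AGGAAGT is a motif of Ets factors. These motifs were in 1.74%, 6.56% and 9.35% of all 32851 promoters. Among the members, 1 promoter held a match, that of Cd79a, with AGGAAGT at position -55 from the start. It is printed for that motif, in capitals, as the 250 bases before the start on the plus strand (chr7:24897247-24897496). A match is a run of letters and no evidence of binding.
Cd79a: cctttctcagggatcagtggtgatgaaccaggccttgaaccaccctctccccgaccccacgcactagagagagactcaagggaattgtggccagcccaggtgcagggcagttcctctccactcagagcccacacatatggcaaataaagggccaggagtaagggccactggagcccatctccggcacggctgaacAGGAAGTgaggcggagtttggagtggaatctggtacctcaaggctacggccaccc

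The members were not read equally well. Cd79a, Cd79b, Ms4a1, Cr2, Cxcr5 and Cxcl13 were well above background on 17 of 17 arrays, Fcer2a on 16 and Pax5 on 15. Blk was well above background on 3 arrays only (WT CONT 2, WT CONT 5 and WT PCN 1). A probe needed 4 such arrays to be tested, so 8 of the 9 members entered the model of group differences. Blk is described by its values.

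Several members varied widely between colons. Ms4a1 had the widest range of the 9, from a log2 signal of 6.45 on WT PCN 2 to 11.55 on WT CONT 2, a 34.5-fold range (53.5-fold with the scanner's background-subtracted signal). Its SD over 17 arrays was 1.48, against a median SD of 0.18 over the tested probes, and 0.406% of tested probes had a larger SD. Cr2 (SD 1.33), Fcer2a (1.09), Cxcr5 (1.08) and Cd79b (1.01) were exceeded by 0.574 to 1.12% of tested probes. Cxcl13 (0.74) and Cd79a (0.56) varied less, and Blk (0.37) and Pax5 (0.27) least. For dim probes the range depended on the background. With the background-subtracted signal that of Blk was 15.3-fold in place of 2.47-fold and that of Pax5 3.37-fold in place of 1.95-fold.

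The receptor chains Cd79a and Cd79b gave nearly the same profile. On WT CONT 2 to 5, Cd79b read 12.65, 11.15, 10.18 and 12.41. On WT PCN 1 to 4 it read 11.70, 9.21, 10.36 and 10.85. On Pxr-/- CONT 1 to 5 it read 11.27, 10.39, 10.44, 9.75 and 11.50, and on Pxr-/- PCN 1 to 4 it read 11.88, 10.93, 11.18 and 9.11. Each group held both high and low arrays, and the 4 groups overlapped. Cd79a followed from 5.51 on Pxr-/- PCN 4 to 7.60 on WT CONT 2 (r = 0.992, rho = 0.980 with Cd79b, 17 arrays). Blk, the kinase, was highest on WT CONT 2 and WT CONT 5 (6.12 on both) and lowest on WT PCN 2 (4.82). It was not well above background on any Pxr-/- array, where its signal is only an upper bound. The measured mean was 5.67 in WT CONT, well above background on 2 of 4 arrays, 5.23 in Pxr-/- CONT and 5.33 in Pxr-/- PCN. No fold is given because part of the WT CONT values are upper bounds too.

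The surface proteins of mature B cells showed the widest swings. Ms4a1 read 11.55, 9.89, 7.86 and 11.22 on WT CONT 2 to 5, and 10.06, 6.45, 8.16 and 9.46 on WT PCN 1 to 4. It read 9.76, 8.23, 9.01, 6.83 and 9.88 on Pxr-/- CONT 1 to 5, and 10.53, 9.45, 9.88 and 7.24 on Pxr-/- PCN 1 to 4. WT CONT contained the highest pair of arrays and also replicate 4, with 3 arrays of the other groups below it. Cr2 ranged from 6.55 to 10.84 and Fcer2a from 5.17 to 8.78, with the same array highest. The other 2 probes of Cr2 followed the chosen one, spanning 4.97 to 8.02 and 5.57 to 9.18. The other probe of Ms4a1, annotated to a different transcript, spanned only 5.86 to 6.98.

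Pax5, as read by its chosen probe, stood apart from the other members. The chosen probe lay between 5.61 on WT CONT 4 and 6.58 on WT CONT 2, a 1.95-fold range. The other Pax5 probe, annotated to an Ensembl transcript, spanned 4.82 on WT PCN 2 to 7.40 on WT CONT 2 but was well above background on 10 arrays only. Ms4a1, Cr2 and Cxcr5 had the same lowest and highest arrays as this other probe. Its correlation with the members was not computed. The probes were dim, and their disagreement leaves the profile of Pax5 uncertain.

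The chemokine Cxcl13 and its receptor Cxcr5 followed the B-cell genes to different degrees. Cxcr5 read 9.57, 8.36, 6.72 and 9.36 on WT CONT 2 to 5, and 8.29, 6.01, 6.98 and 8.01 on WT PCN 1 to 4. It read 8.22, 6.84, 7.61, 6.09 and 8.35 on Pxr-/- CONT 1 to 5, and 8.66, 8.18, 8.33 and 6.37 on Pxr-/- PCN 1 to 4. These are the arrays that were high and low for Ms4a1. Cxcl13 read 10.63, 10.29, 9.11 and 10.53 on WT CONT 2 to 5, and 10.71, 8.63, 8.96 and 9.34 on WT PCN 1 to 4. It read 9.78, 8.90, 9.55, 8.61 and 9.70 on Pxr-/- CONT 1 to 5, and 10.44, 9.37, 10.60 and 9.07 on Pxr-/- PCN 1 to 4. For Cxcl13 alone the highest array was WT PCN 1, and Pxr-/- PCN 3 came among its highest 3.

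**Figure D1:**
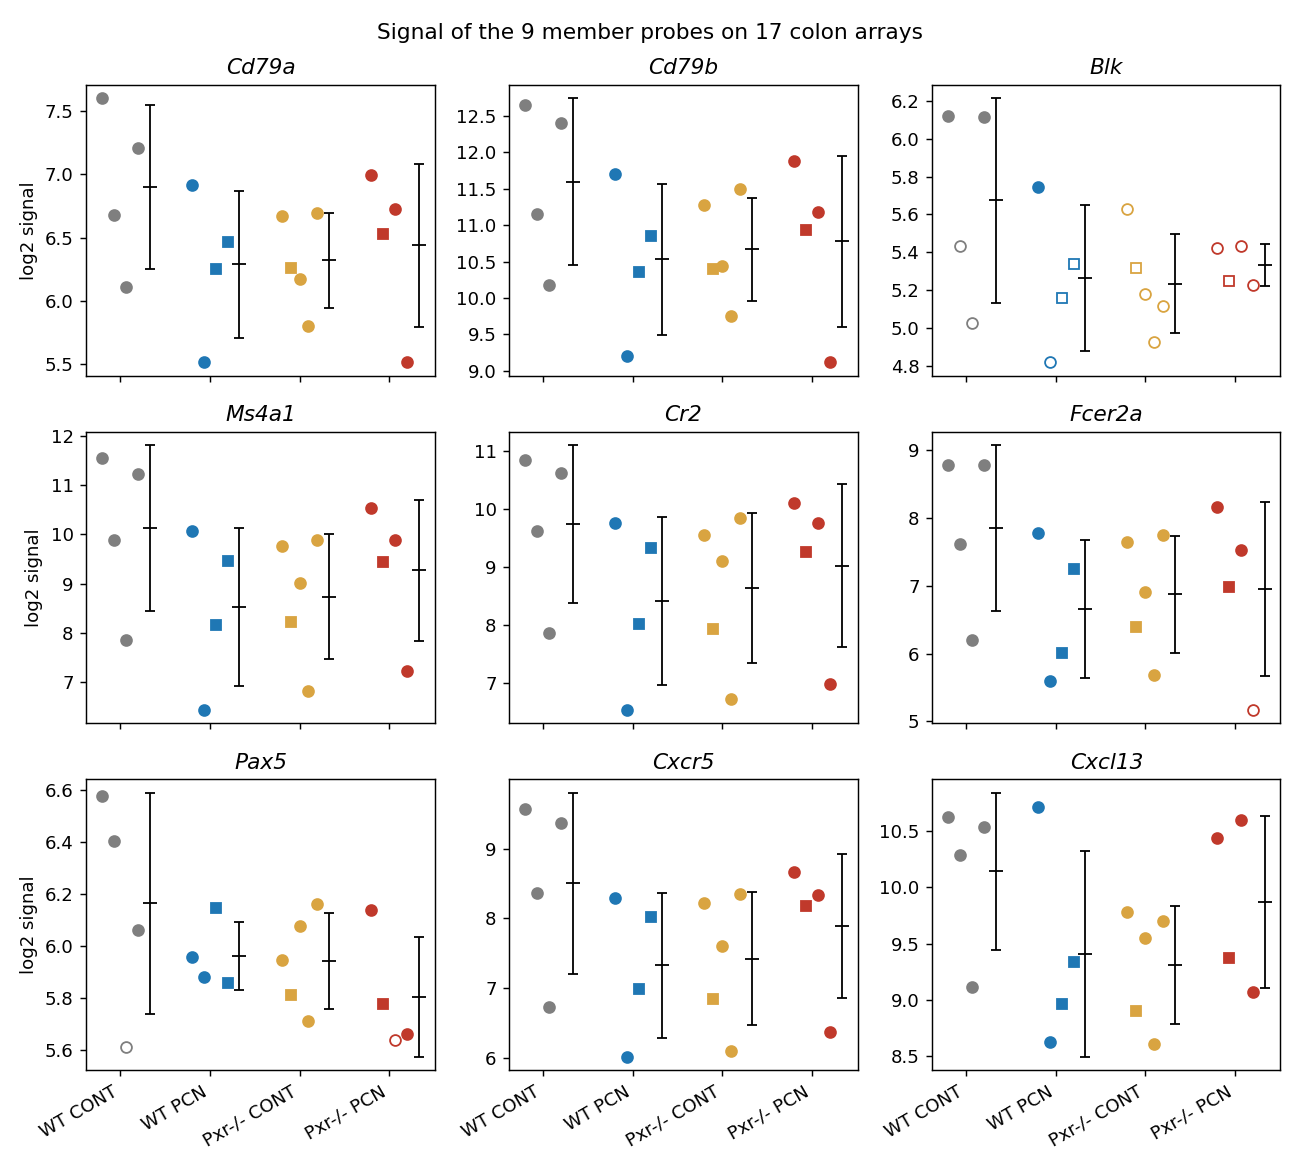
Log2 signal of each of the 9 members on the 17 arrays by group, with squares for the 4 near-identical arrays, open symbols where the probe was not well above background, and black bars for the mean and SD of each group. The groups overlap in every panel, and each panel has its own vertical scale, from about 1 log2 unit for Pax5 to 5 for Ms4a1.

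The members rose and fell together across arrays. Over 17 arrays the mean Pearson r of the 36 pairs was 0.843 (0.495 to 0.994) and the mean Spearman rho 0.830, with 15 pairs above 0.9. The first principal component held 96.2% of the variance of the 9 profiles, which weights the genes that vary most. The correlation was 0.856 with each near-identical pair averaged (15 profiles) and 0.865 over the 13 arrays outside them. It was 0.831 for deviations from the group means, so that the common profile was found among arrays of the same group. Within wash baths (arrays washed together, per the labels) it was 0.855 over 9 arrays and 0.869 over 8. Without WT CONT 2 and WT PCN 2, the arrays farthest from the median, it was 0.794. These correlations describe arrays that share a normalization and carry no test.

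The closest pair was Ms4a1 and Cxcr5 (r = 0.994, rho = 0.980), followed by Ms4a1 and Cr2 (r = 0.993) and by Cd79a and Cd79b (r = 0.992). Against the mean of the other 8 members, r was 0.994 for Ms4a1, 0.988 for Cxcr5, 0.982 for Fcer2a, 0.981 for Cr2, 0.977 for Cd79b and 0.975 for Cd79a. It was 0.894 for Cxcl13, the product of follicle stroma, 0.840 for Blk and 0.607 for the chosen probe of Pax5. Of 24986 other genes, 1 correlated more closely than Ms4a1 with the same mean, 65 more closely than Cxcl13 and 1631 more closely than Pax5. Without the dim Blk and Pax5, the mean pairwise r was 0.947 over 17 arrays and 0.960 over 13 arrays.

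**Figure D2:**
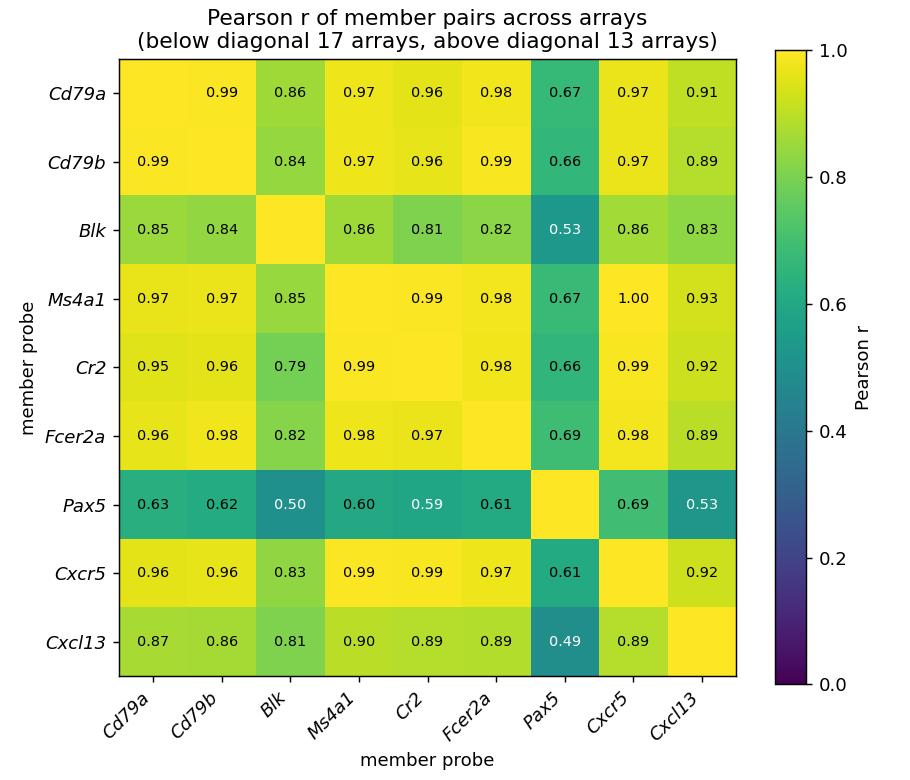
Pearson r of each pair of members, below the diagonal over 17 arrays and above it over the 13 arrays outside the near-identical pairs, coloured from 0 to 1. The row and column of the chosen Pax5 probe stand out as low, from 0.49 to 0.63 over 17 arrays. Blk and Cxcl13 lie between Pax5 and the other 6 members.

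The order of the arrays was shared by most members. Averaged over the 9 members as the deviation from each probe's mean, WT CONT 2 (1.45) and WT CONT 5 (1.23) were highest. WT PCN 2 (-1.40), Pxr-/- CONT 4 (-1.24) and Pxr-/- PCN 4 (-1.21) were lowest. WT CONT 2 was the highest array for 8 of 9 members. WT PCN 2 and Pxr-/- CONT 4 were each among the lowest 3 for 8 members, and Pxr-/- PCN 4 for 7. Each group and each wash bath held arrays with positive and with negative averages. The highest pair of arrays were both WT CONT (WT CONT 2 in bath 1 and WT CONT 5 in bath 2). Under corn oil the average was 0.60 ± 0.98 (SD, n = 4) in WT and -0.24 ± 0.69 (SD, n = 5) in Pxr-/-. Under PCN it was -0.32 ± 0.87 (SD, n = 4) in WT and 0.01 ± 0.87 (SD, n = 4) in Pxr-/-. The 4 groups overlapped on this scale.

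**Figure D3:**
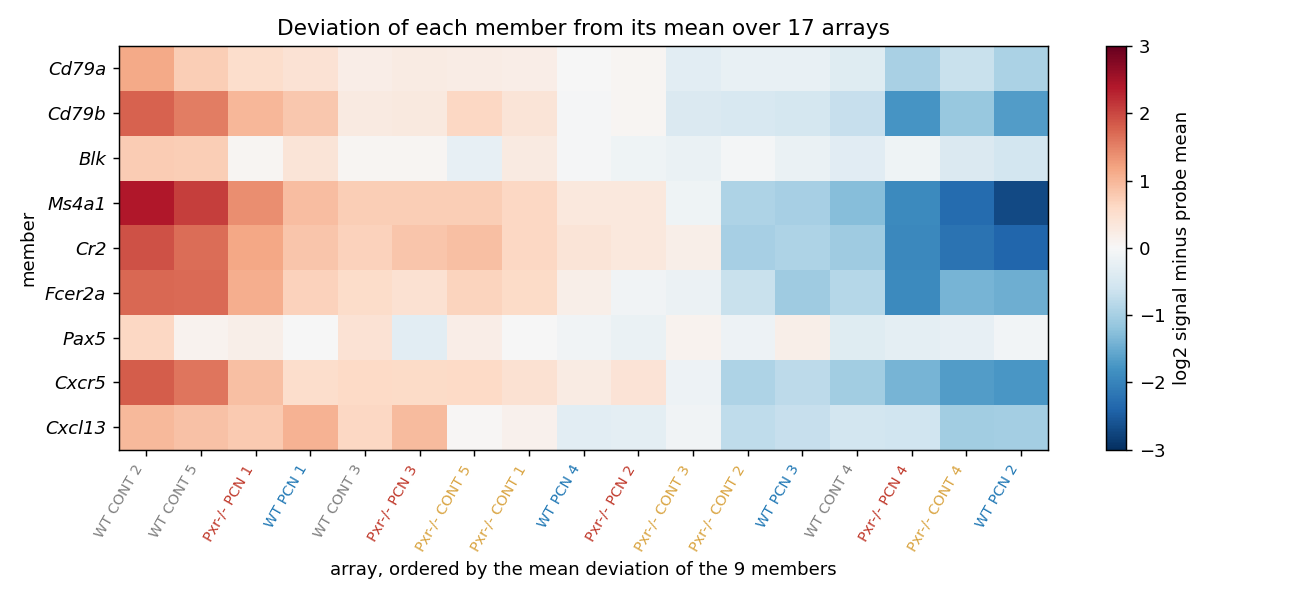
Deviation of each member from its own mean over 17 arrays (colour, log2 units from -3 to 3), with arrays ordered by the mean deviation of the 9 members and array names coloured by group. Most rows pass from red to blue at about the same array, the colours of the group names are mixed along the axis, and Pax5 and Blk are pale.

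The group means took up a small part of this spread. Means of 4 groups take up some of it even where groups do not differ, so these shares alone show no group effect. Of the sum of squares of each member over 17 arrays, 14.6% (Cr2) to 23.9% (Blk) lay between the 4 group means, and over 13 arrays 14.3% to 22.9%. The pooled SD within groups was 1.48 for Ms4a1, 1.37 for Cr2, 1.08 for Cxcr5 and 0.56 for Cd79a.

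PCN against corn oil in WT colon was the first comparison, asking what the ligand does where its receptor is present. No member was called by limma (false discovery rate of at most 0.05 over all tested probes and a fold change over 1.5), beside 0 of 38702 probes (0%) called at all and 1803 probes at an unadjusted p under 0.05. The values of the 8 tested members were all lower under PCN (median -1.06, against 0.00 over all tested probes). They ran from -0.23 for Pax5 to -1.52 ± 1.00 (SE; 95% interval -3.66 to 0.62) for Ms4a1. The adjusted p was 0.956 for the chosen probe of each of the 8, and the lowest unadjusted p among these probes was 0.137 (limma, Cxcr5). The other probe of Ms4a1 had -0.42 ± 0.21 (SE), with unadjusted p = 0.0640 and adjusted p = 0.956 (limma). With 13 arrays the median was -1.15, and again no member was called beside 19 probes (0.0491%). Without WT CONT 2 the median shrank to -0.60, and without WT CONT 4 it grew to -1.59. Within wash bath 1 it was -1.76 (3 PCN and 2 CONT arrays), whereas within bath 2 it was 0.28 (1 and 2 arrays), with all 9 members higher under PCN there.

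PCN in Pxr-/- colon asked what the ligand does in the absence of the receptor. No member was called, beside 2 of 38702 probes (0.00517%) and 2846 at an unadjusted p under 0.05. The median was 0.27, with 7 of 8 values higher under PCN, up to 0.58 ± 0.45 (SE; 95% interval -0.39 to 1.56) for Cxcl13 (adjusted p = 0.847, limma). With 13 arrays the median was 0.05, with 5 of 8 higher, no member called and 20 probes called (0.0517%). The estimates of Cd79b and Fcer2a changed sign between the sets of arrays, from 0.14 to -0.09 and from 0.11 to -0.11. Leaving out Pxr-/- PCN 4 raised the median to 0.89, and leaving out Pxr-/- CONT 4 took it to -0.05. Within baths it was 0.95 and -0.29.

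Pxr-/- against WT colon without PCN compared the genotypes under corn oil. No member was called, beside 0 of 38702 probes (0%) and 4913 at an unadjusted p under 0.05. All 8 values were lower in Pxr-/- (median -0.98), from -0.21 for Pax5 to -1.42 ± 0.94 (SE; 95% interval -3.42 to 0.58) for Ms4a1, with adjusted p between 0.446 and 0.607. Cxcl13 had the lowest of these (-0.85 ± 0.45 SE, adjusted p = 0.446, unadjusted p = 0.0804, limma). Pxr-/- CONT and WT CONT overlapped for every member. WT CONT 4, also the array with the most pancreatic RNA, lay among the Pxr-/- CONT arrays or, for Pax5, below them. Other CONT arrays carried RNA of neighbouring organs too. Pxr-/- CONT 2 had an acinar mean of 15.29, and WT CONT 5, high for the members, had the highest liver mean of all arrays (12.22). Without WT CONT 4, Ms4a1, Cxcr5 and Cxcl13 no longer overlapped. Ms4a1 separated only barely (9.89 on WT CONT 3 against 9.88 on Pxr-/- CONT 5), as did Cxcr5 (8.36 against 8.35). The other members still overlapped through WT CONT 3 or, for Pax5, WT CONT 5. How many of all tested probes separate in this way was not counted, so the separation is not a result about these members. The median without WT CONT 4 was -1.61, with adjusted p from 0.167 (Cxcl13) upwards. Without WT CONT 2 the median was -0.64. With 13 arrays it was -0.85, no member was called and 0 probes (0%) were called, against 3899 at an unadjusted p under 0.05. Within bath 1 it was -1.80 and within bath 2 it was -0.23.

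Pxr-/- against WT colon under PCN gave small values with wide intervals. No member was called, beside 0 of 38702 probes (0%) and 1271 at an unadjusted p under 0.05. The median was 0.32, with 7 of 8 higher in Pxr-/-, up to 0.67 ± 1.00 (SE; 95% interval -1.47 to 2.80) for Ms4a1 (adjusted p = 1.00, limma). Without WT PCN 2 the median was -0.05, and without WT PCN 1 it was 0.82. With 13 arrays it was 0.27, no member was called and 8 probes were called (0.0207%). The values turned within bath 2, where the median was -0.96 (2 Pxr-/- arrays and 1 WT array), against 0.96 within bath 1.

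The difference of the PCN effect is the effect in Pxr-/- minus that in WT, whose medians were 0.27 and -1.06. This difference was positive for all 8 members (median 1.25), from 0.08 for Pax5 to 2.09 ± 1.36 (SE) for Ms4a1. The value of Cxcl13 was 1.26 ± 0.66 (SE; 95% interval -0.16 to 2.67). No member was called, beside 0 of 38702 probes (0%) and 2081 at an unadjusted p under 0.05, and adjusted p lay between 0.848 and 0.955 (limma). The median was 0.92 without WT CONT 2 and 1.81 without Pxr-/- PCN 4. With 13 arrays the median was 1.06, no member was called and 1 probe was called (0.00258%). Over the 5 comparisons with 17 arrays, the lowest unadjusted p of any chosen probe was 0.0772 (limma, Cxcl13). The other probe of Ms4a1 had lower values, 0.0640 for PCN in WT colon and 0.0700 for the difference of the PCN effect (limma). The 5 comparisons use the same 17 arrays, and those that share WT CONT share its high arrays, so their directions do not add to each other. Since the members move together, 8 values of one sign are not 8 observations.

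**Figure D4:**
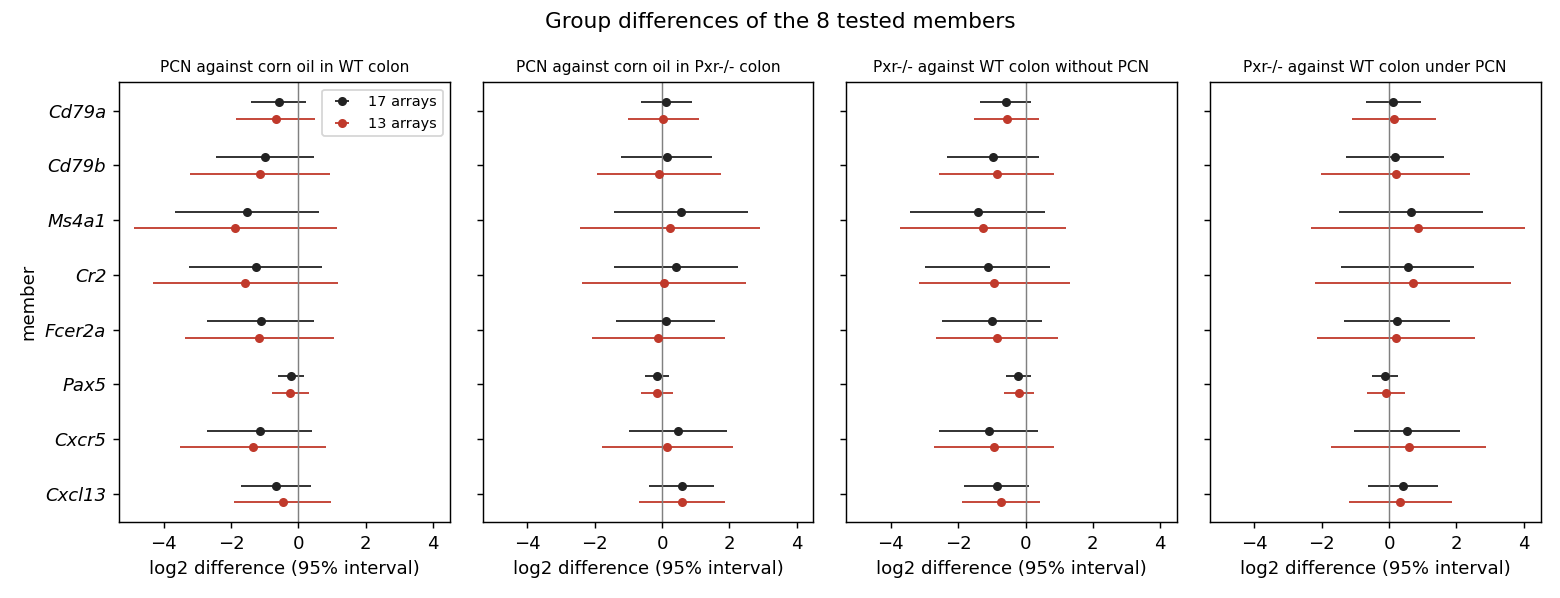
Log2 difference and 95% interval of the 8 tested members in 4 group comparisons, from all 17 arrays (black) and from the 13 arrays outside the near-identical pairs (red). Every interval includes 0, the intervals are wider with 13 arrays, and those of Pax5 are the narrowest.

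Genes outside the 9 followed the same profile. Among the 10 with the highest r to the mean of the members over 13 arrays were Tnfrsf13c (0.997), H2-Ob (0.992), Bank1 (0.991), Chst3 (0.990), Cnr2 (0.986), Fcrl1 (0.985), Siglecg (0.985), Gm20506 (0.984) and Fcrla (0.983). Tnfrsf13c encodes the receptor for the B-cell survival factor BAFF and ranged over 3.82 on the log2 scale. Cnr2, a cannabinoid receptor, moved within 10.27 to 10.70 only, so a high r here does not say how large the swing was. Of 24992 genes, 94 (0.376%) had r above 0.9 over 13 arrays. None of those named was called in any comparison with 17 arrays.

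Genes of B cells and follicles that are not members were taken from lists. For 20 B lineage genes the list mean per array correlated with the member mean at r = 0.991 (rho = 0.978, 17 arrays), and 13 of the 20 genes had r above 0.8. Pou2af1, a B-cell coactivator, had r = 0.868. Cd22, an inhibitory coreceptor, had 0.680 and varied only from 8.01 to 8.96. Single genes of the list ran from 0.069 to 0.996, and their mean pairwise r was 0.597. Ighm and Ighd, the heavy chains of IgM and IgD, had no probe matched by name. In WT colon 18 of the 20 were lower under PCN (median -0.48) and in CONT colon 19 of 20 were lower in Pxr-/- (median -0.52). In Pxr-/- colon 14 of 20 were higher under PCN (median 0.07), and under PCN 15 of 20 were higher in Pxr-/- (median 0.13). None was called. Because the list follows the members on the same arrays, these directions are not further observations.

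For 16 genes of follicle stroma and lymphoid organisation the list mean had r = 0.967 with the member mean. The genes were divided (mean pairwise r 0.399), with 7 of 16 above 0.8 and single genes from -0.559 (Ltbr) to 0.982 (Ccr6). Ccr7 (0.937) and Ltb (0.927), a lymphotoxin chain made by lymphocytes, were close, as was Ccl19 (0.884), a stromal chemokine of T-cell zones. Ccl21a (0.569) and Madcam1 (0.471), the vascular addressin of the gut, were less so. The 10 germinal centre genes had r = 0.814 as a list, but 2 of the 10 were above 0.8 and single genes ran from -0.289 to 0.877. The M-cell list of the epithelium over follicles did not follow (r = -0.024), its marker Gp2 being also a pancreatic protein and ranging from 5.22 to 15.53. Among these lists no gene was called in any comparison, with 17 or with 13 arrays.

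Plasma-cell and T-cell lists followed the members less closely than the B lineage list. The plasma-cell list had r = 0.492, with Mzb1 at 0.606 and Jchain, the joining chain of secreted IgA and IgM, at 0.259 (14.78 to 16.40). Over 13 arrays it was closer, with 0.638 for the list, 0.696 for Mzb1 and 0.427 for Jchain. The T-cell list had r = 0.262 (0.301 over 13 arrays), with Cd4 at 0.320 and Cd3e, a chain of the T-cell receptor complex, at 0.097. Pxr-/- PCN 4, among the lowest 3 arrays for 7 members, had the highest T-cell mean of all arrays (9.06) and the lowest plasma-cell mean (10.51). WT PCN 2, the lowest for the members, also had the lowest T-cell mean (7.83). Of 11 T-cell genes, 1 exceeded r = 0.8, Cd2 (0.855), which was chosen for mention after its value was seen.

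The other lists mark tissue layers and neighbouring organs. The means of 7 smooth muscle genes (r = -0.706) and of 9 epithelial genes (r = -0.727) ran against the members. Smooth muscle ranged from 14.44 (Pxr-/- PCN 1) to 15.43 (Pxr-/- CONT 4), 0.99 on the log2 scale, and epithelium over 0.41. The epithelial genes did not move as one (mean pairwise r 0.033). Chosen for mention as the extremes, Car1, a carbonic anhydrase, had r = -0.810 and ranged over 3.42, whereas Cdh1, the epithelial cadherin, had r = 0.726 and ranged over 0.37. The 6 genes of lymphatic vessels and lymph nodes ranged over 0.41 and had r = 0.102. Myeloid cells had r = 0.379 (Cd68, 0.237), liver 0.384 (Alb, 0.325), adipocytes -0.011 and pancreas -0.300 (Cpa1, -0.250). Without the 4 near-identical arrays these values were -0.688 for smooth muscle and -0.710 for epithelium, and 0.991 for the B lineage. The part of these tissues in the profile of the members was not tested.

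**Figure D5:**
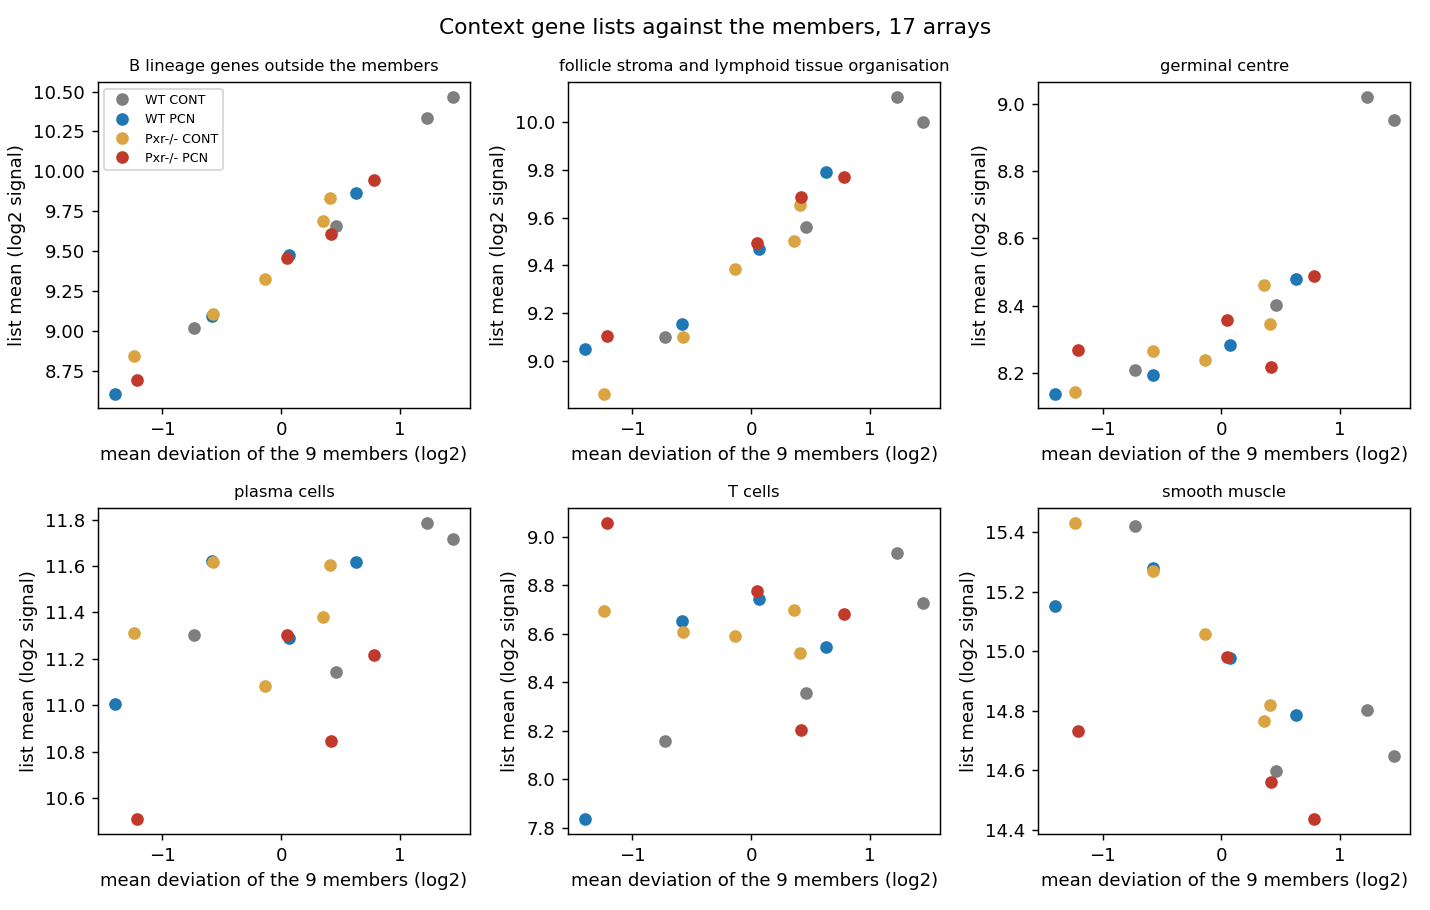
Mean log2 signal of 6 context gene lists against the mean deviation of the 9 members, 1 point for each of 17 arrays, coloured by group. The means of the B lineage list (r = 0.991) and of the follicle stroma and lymphoid organisation list (0.967) lie along a rising line. The single genes of both lists are divided, with a mean pairwise r of 0.597 for the B lineage and 0.399 for the stroma list. Plasma cells (0.492) and T cells (0.262) scatter, and smooth muscle declines (-0.706).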

How the data were processed

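Total RNA of colon (150 ng per sample, Cy3-labelled) was hybridized to Agilent SurePrint G3 mouse arrays. The authors deposited the scanner output (Agilent Feature Extraction 10.10.1.1), in which intensity is the brightness of each spot, and a table of log2 values for 36695 probes, deposited after bath correction and normalization. Their CrossNorm method was not repeated. Here the median intensity of 59305 spots without outliers was put on the log2 scale, quantile-normalized between arrays and averaged per probe (56605 probes). No spot was saturated, and the number of arrays limits the precision.

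Probes well above background on at least 4 arrays (38702) were tested with limma 3.58.1 (R 4.3.3) by a linear model of the 4 groups and the wash bath, all 17 arrays together, as the groups and replicates are labelled. P-values were adjusted by Benjamini-Hochberg over all tested probes. Calls required a false discovery rate up to 0.05 together with a fold above 1.5. Probes were named by the file or, where listed, by RefSeq accession (32994 probes). Simulated arrays with known changes were used to test the fit.

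The members, gene lists and alternatives were chosen with earlier results of these data known. Genes named are the members, the 10 genes closest to their mean over 13 arrays, set genes of the lists, and Cd2, Car1 and Cdh1, and the results of some are not reported here. List genes Ighm, Ighd, Igha and Trbc2 were not matched by name, and Fkbp11 and Apoa1 were not tested. Same-numbered arrays had a mean r of 0.092 (21 pairs, from -0.33 to 0.49). Differently numbered arrays had a mean r of -0.036 (82 pairs, from -0.49 to 0.58). Replicate numbers are not stated to pair mice, so they were used as a block only among the alternatives. The alternatives were other normalizations and filters, other blocks and leaving out arrays.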

Additional observations from a re-analysis of the deposited data

How the results depend on the processing

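No member was called in any comparison in the 17 fits that each left out 1 array, or under the 12 other alternatives with a count of calls (11 for the difference of the PCN effect). Of 1142 values of single members recomputed, 25 changed sign, 22 of them on leaving out 1 array. The others were in PCN against corn oil in Pxr-/- colon, where Fcer2a was -0.058 with the processed signal minus the 75th percentile, and Cd79b and Fcer2a were -0.092 and -0.11 without the 4 near-identical arrays. On leaving out each array, that comparison ranged from -0.060 to 0.51 for Cd79a, from -0.23 to 0.83 for Cd79b, from -0.13 to 1.23 for Cr2 and from -0.30 to 0.84 for Fcer2a. Pxr-/- against WT under PCN ranged from -0.11 to 0.44 for Cd79a, from -0.23 to 0.75 for Cd79b, from -0.018 to 1.24 for Cr2 and from -0.10 to 0.85 for Fcer2a. The difference of the PCN effect ranged from -0.063 to 0.25 for Pax5. The cause was not tested. Within wash bath 2 the median of the members was 0.28 for PCN in WT colon and -0.96 for genotype under PCN. These within-bath medians, the other probes of a gene and the correlation without Blk and Pax5 (0.947 over 17 arrays and 0.960 over 13 arrays) were added after seeing the data. With a replicate block the medians were -1.40, 0.45, -1.19, 0.57 and 1.71 in the order of the report, and no call changed. Over all probes, the number called for PCN in WT colon went from 0 to at most 39 (without WT PCN 3 and 4), and for PCN in Pxr-/- colon from 2 to at most 29 under the same alternative. For genotype the highest were 8 without PCN (only the groups of the contrast) and 15 under PCN, and for the difference of the PCN effect it was 3 (both without WT PCN 3 and 4). The dim probes of Blk and Pax5 limit what can be said of them.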
